A study of Panicum virgatum with 54 samples.

Results

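The read count table of this switchgrass leaf experiment holds 32190 genes, and 1456 of them carry an identifier that begins with Pavir.J. The letter J stands where other identifiers name a chromosome, and it marks sequence placed on none. These 1456 genes, 4.52% of the table, are described here beside the 30734 genes on chromosomes 1K to 9K and 1N to 9N. All genes with the prefix were taken, so no measured value chose them. Expression filtering kept 1448 of the 1456 for testing, and the other 8 had no count in any library.

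Switchgrass (Panicum virgatum) is a perennial C4 grass grown for forage and biomass, and AP13 is a genotype of its lowland cultivar Alamo. It is a polyploid whose K and N subgenomes carry related copies of most chromosomes. In a draft genome, unplaced sequences are assembled stretches that could not be anchored to a chromosome map. In plant assemblies they are often short, rich in repeats, or a further copy of a region that is also present on a chromosome. Genes on them can share reads with near-identical copies elsewhere, so the count of any single unplaced gene is uncertain in that respect. The strand setting of the counting is also unknown. Since the deposited table pairs no identifier with a gene name, no function is assigned to any gene below.

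Leaves of AP13 plants were sampled under combined stress (drought followed by heat), under drought alone and under control conditions, at 0, 72, 96, 120, 144 and 168 h, with 3 libraries in each of the 18 groups and 18 libraries per treatment. All plants carry the same stage label, E3. In the titles, combined plants had 0 h of heat at 72 h, 24 h at 96 h, 48 h at 120 h and 72 h at 144 h, and no hours are given at 168 h. Drought and control plants stood in a shared growth chamber and combined plants in a separate one, so heat and chamber cannot be told apart. Whether replicate libraries stem from different plants is not stated in the labels, and p-values therefore reflect only how these libraries vary, part of which may be technical.

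Libraries held between 19.2 M and 61.6 M counts (M, mega; median 34.6 M). Several libraries stood apart from the rest. A set of 405 genes, 42 of them unplaced, was almost without counts in 12 libraries (8 combined, 4 drought and 0 control) and at reduced levels in 4 more, and results are given with and without these 16. Separately, 3 libraries sat most clearly with a group other than the labelled one over the unplaced genes that were called higher. The library labelled combined, 72 h, replicate 3 was nearer the heated combined mean than the drought mean in 163 of 185 genes that were higher in combined plants at 96 to 168 h, although its title gives no heat. The other combined libraries of that time were nearer to it in 52 and 90 genes. The library labelled control, 144 h, replicate 2 was nearer the drought mean in 130 of 168 genes that were higher under drought. The library labelled drought, 168 h, replicate 2 was nearer the drought mean in only 57 of those 168. The last 2 libraries were themselves part of the comparison that defined the 168 genes, and fits without all 3 libraries are given beside the counts. Other drought libraries were also divided. Over 142 genes lower under drought, outside the set of 405, drought, 168 h, replicate 2 was nearer the drought mean in 50. Drought, 96 h, replicate 2 was nearer it in 32 of the 142 and 89 of the 168. Drought, 72 h, replicate 2 was nearer it in 65 of the 142 and 75 of the 168. These libraries of 72 and 96 h are not among the 3. Control libraries of 0 h, before treatment and outside the comparison, were divided as well. Their replicates 1 to 3 were nearer the drought mean in 93, 58 and 71 of the 168 genes and in 95, 62 and 75 of the 142.

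The typical unplaced gene had fewer counts than the typical chromosome gene. Levels are CPM, the usual unit of counts relative to a scaled library size. They are not divided by gene length, which was not at hand, so the part of length in differences between the 2 kinds of gene was not tested. The median unplaced gene had a mean of 5.82 CPM over the 54 libraries, with an interquartile range of 2.40 to 14.7 CPM, against 11.03 CPM and a range of 4.70 to 25.4 CPM for chromosome genes. Each of the 18 chromosomes had a higher median than the unplaced genes, from 8.76 CPM on chromosome 8K to 12.5 CPM on 9K. The order was the same in each library: the median unplaced gene had 4.57 to 5.66 CPM and the median chromosome gene 9.63 to 11.2 CPM, and their ratio lay between 0.454 and 0.557. This ratio hardly moved with treatment, with a median of 0.5002 in combined, 0.491 in drought and 0.508 in control libraries. Under 1 CPM were 89 unplaced genes (6.11%) and 813 chromosome genes (2.65%), and over 100 CPM were 45 (3.09%) and 1430 (4.65%).

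**Figure D1:**
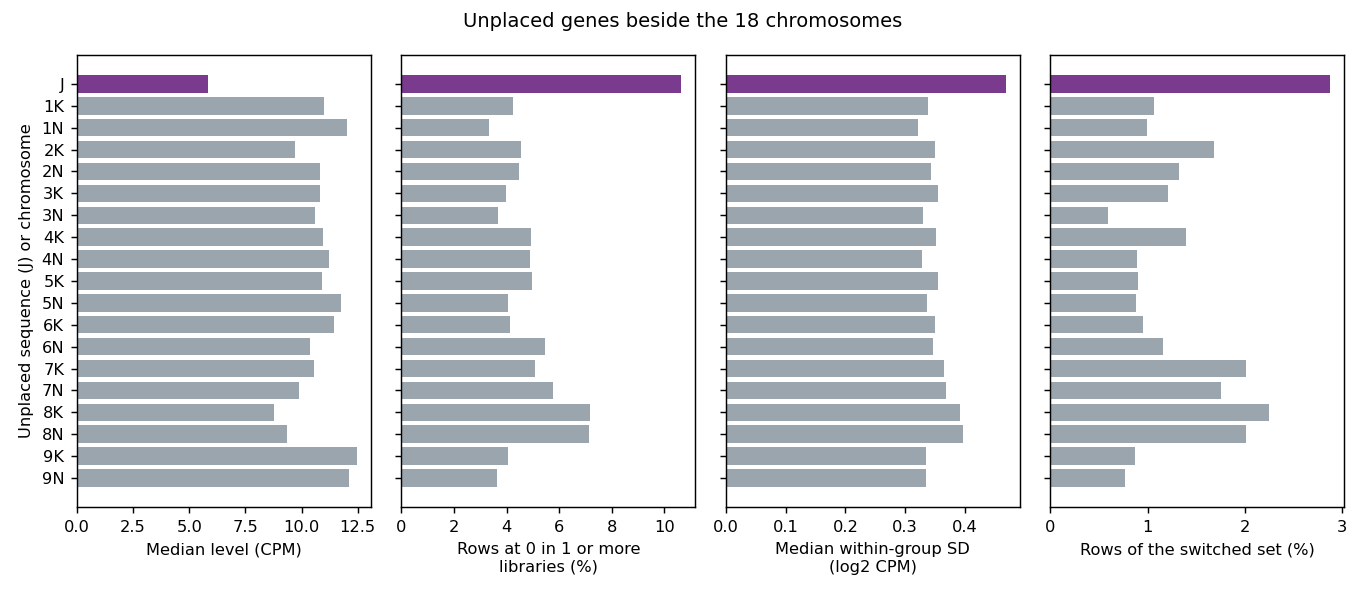
Bars give, for unplaced genes (J, purple) and for each chromosome (grey), the median level in CPM, the percentage of genes with 0 counts in 1 or more libraries, the median SD of log2 CPM within groups, and the percentage of genes in the switched set. The unplaced genes had the lowest level (5.82 CPM) and the highest of each other value (10.6%, 0.47 and 2.88%).

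The mean level did not follow the median, because a few unplaced genes were very abundant. Unplaced genes averaged 31.3 CPM, the same as chromosome genes at 31.3 CPM, and they held 4.48% ± 0.66 of the counts of a library (SD, n = 54, from 3.05% to 6.07%), close to their 4.52% share of the genes. The 5 most abundant took 17.8% to 52.0% of all unplaced counts. Without them the share was 2.86% ± 0.26 (SD, n = 54).

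The share of counts differed modestly between treatments. It averaged 4.38% ± 0.66 in combined, 4.23% ± 0.46 in drought and 4.82% ± 0.71 in control libraries (SD, n = 18 each). At 168 h the groups did not overlap: 3.21% to 3.68% in combined, 3.90% to 4.55% in drought and 4.66% to 5.78% in control libraries. Without the 5 most abundant unplaced genes they did overlap, at 2.60% to 2.64%, 2.55% to 3.13% and 2.77% to 3.02% in the same order. At 0 h, before any treatment, combined libraries lay above the others, at 4.93% to 5.39%, against 4.17% to 4.46% in drought and 3.85% to 4.50% in control libraries, and without those 5 genes these groups overlapped too, at 3.01% to 3.31%, 2.92% to 3.16% and 2.93% to 3.13%. With 3 libraries against 3, an exact permutation test cannot go below 0.10, and no test was made. The library labelled control, 144 h, replicate 2 had the lowest share of all, 3.05%.

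**Figure D2:**
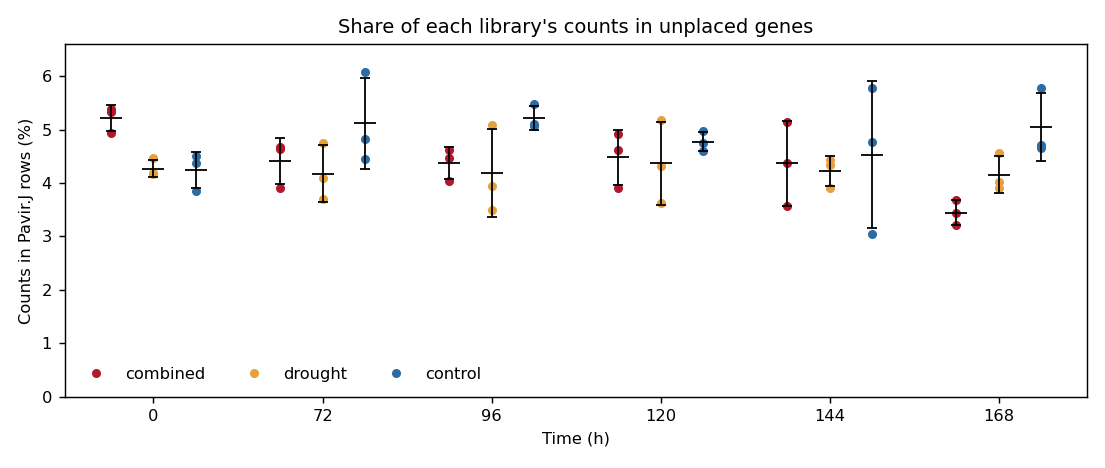
Points are the 54 libraries, with the percentage of their counts in unplaced genes on the y axis and time in hours on the x axis. Black bars are the mean and SD of 3 libraries. The control group at 144 h had the widest spread (4.53% ± 1.38), and the combined group at 168 h the lowest mean (3.44% ± 0.23).

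The most abundant unplaced gene, Pavir.J004700.v4.1, averaged 5987 CPM and had the highest mean CPM of the whole table. It had 1776, 4308 and 11271 CPM (lowest, median and highest of 18 libraries) in combined, 1168, 6001 and 15975 CPM in drought and 1200, 5441 and 20440 CPM in control libraries. Its replicates differed by several fold in most groups, the ranges of the 3 treatments overlapped over all times together, and it was called in none of the 4 comparisons described below. At 72 h the 3 control libraries alone held 1593, 7839 and 20440 CPM. Combined and control libraries did not overlap at 0 h (5298 to 7100 CPM, against 1834 to 4389 CPM) or, in the opposite order, at 168 h (1983 to 3726 CPM, against 3925 to 20226 CPM).

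The next 4 were called lower under stress in at least 1 comparison. Pavir.J651100.v4.1 had 680, 1791 and 6074 CPM (lowest, median and highest of 15 libraries at 72 to 168 h) in drought, against 534, 4988 and 7554 CPM in control libraries. Its log2 difference was -1.14 ± 0.31 (SE), with an adjusted p of 0.0080 (edgeR), and the lowest control value came from the library labelled control, 144 h, replicate 2. The groups overlapped, and the adjusted p was 0.0841 with an estimated correlation between libraries of the same number. Pavir.J165300.v4.1 had 509, 1522 and 2792 CPM in drought, against 547, 2921 and 4019 CPM in control libraries. It differed by -0.95 ± 0.25, with an edgeR adjusted p of 0.0064, and by -0.98 ± 0.28 between combined and control libraries (adjusted p 0.0051). With an estimated correlation the adjusted p was 0.0938 for drought and 0.0288 for combined stress. Pavir.J629500.v4.1 had 829, 1485 and 2859 CPM in drought, against 814, 2515 and 4065 CPM in control libraries, a log2 difference of -0.63 ± 0.21 (edgeR adjusted p 0.0290). That call was the least stable of these genes: the adjusted p was 0.164 with an estimated correlation and 0.0900 without control, 144 h, replicate 3, and it was also lost without replicate 3 of drought at 72 h (0.0541), 96 h (0.0570) or 168 h (0.0545). At 0 h these genes, in the order given, averaged 3229, 1903 and 1927 CPM in drought and 3175, 1397 and 1662 CPM in control libraries. At 72 to 168 h the means were 2324, 1530 and 1633 CPM in drought and 5017, 2938 and 2497 CPM in control libraries, so control libraries rose from their start. Pavir.J165300.v4.1 stood at 3635 ± 139 CPM in combined libraries at 0 h, against 1397 ± 564 CPM in control libraries (SD, n = 3 each), the reverse of the later order.

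The last of these genes was lower under combined stress than under drought alone. Pavir.J239000.v4.1 had 368, 1410 and 2807 CPM (lowest, median and highest of 12 libraries at 96 to 168 h) in combined, 1787, 2397 and 5042 CPM in drought and 1408, 3044 and 6505 CPM in control libraries. In combined libraries it was lower than in drought by -1.05 ± 0.22 and lower than in control by -1.19 ± 0.23 on the log2 scale, with edgeR adjusted p of 0.0005 and 0.0001, and 9 of 12 combined values lay below all drought values. Without the 16 libraries that stand apart, the call against drought was lost (-0.90, adjusted p 0.0717). Combined libraries already differed at 0 h, where Pavir.J239000.v4.1 averaged 3356 ± 242 CPM, against 2165 ± 747 CPM in drought and 1858 ± 884 CPM in control libraries (SD, n = 3 each).

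Unplaced genes were also more often without counts. A count of 0 in at least 1 library was found for 155 of 1456 unplaced genes (10.6%, exact 95% binomial interval 9.11% to 12.3%) and for 1390 of 30734 chromosome genes (4.52%, 4.29% to 4.76%). The intervals treat genes as independent draws, and they cover neither the noise of read counts nor the spread between libraries. The chromosomes ran from 3.33% on 1N to 7.19% on 8K. Genes at 0 in all libraries numbered 8 among unplaced (0.549%) and 139 among chromosome genes (0.452%). For those 8, 0 counts allow up to 0.0487 CPM in the deepest library and 0.157 CPM in the shallowest (3 counts of the total).

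Within bins of mean level the difference remained, except among the most abundant genes. In 4 equal bins of all genes by mean level, lowest first, 18.5%, 7.02%, 2.62% and 0% of unplaced genes were at 0 in some library, against 13.7%, 2.50%, 0.581% and 0.0513% of chromosome genes. Thinning all libraries to the shallowest gave 12.6% and 5.47%. A library had 8 to 56 unplaced genes at 0, and the higher numbers came from the 12 libraries without the switched set, with 26 to 56 (median 41), against 8 to 30 (median 16) in the other 42. Of the 147 unplaced genes at 0 in some but not all libraries, 43 were so in 1 library, 54 in 2 to 5, 48 in 6 to 27 and 2 in 28 to 53. All zeros of 71 of these genes fell in those 12 libraries. The switched set itself held 36 of the 147. Leaving its members out, the 12 libraries had 22 to 37 unplaced genes at 0. A library had 191 to 583 chromosome genes at 0. These were not divided by the 12 libraries, so whether they share this pattern was not tested.

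Replicates differed more from each other over unplaced genes. The SD of log2 CPM (prior count 2) among the 3 libraries of a group, taken as the median over the 18 groups for each gene, had a median of 0.47 over unplaced and 0.35 over chromosome genes. The unplaced median was higher in 18 of 18 groups, from 0.26 to 0.56, against 0.21 to 0.45. Chromosomes ran from 0.32 on 1N to 0.40 on 8N. An SD above 1 was found for 165 unplaced genes (11.4%) and 1988 chromosome genes (6.50%). The biological coefficient of variation estimated by edgeR gave the same order, 0.388 and 0.2997. Leaving out the 16 libraries that stand apart lowered both SDs, to 0.38 and 0.30, and leaving out the 42 switched genes gave 0.46 for unplaced genes. By level bin, lowest first, the unplaced medians were 0.57, 0.44, 0.34 and 0.33 and the chromosome medians 0.53, 0.35, 0.27 and 0.28. In each bin the unplaced genes thus had the larger SD, although levels of the 2 kinds of gene can still differ within a bin.

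**Figure D3:**
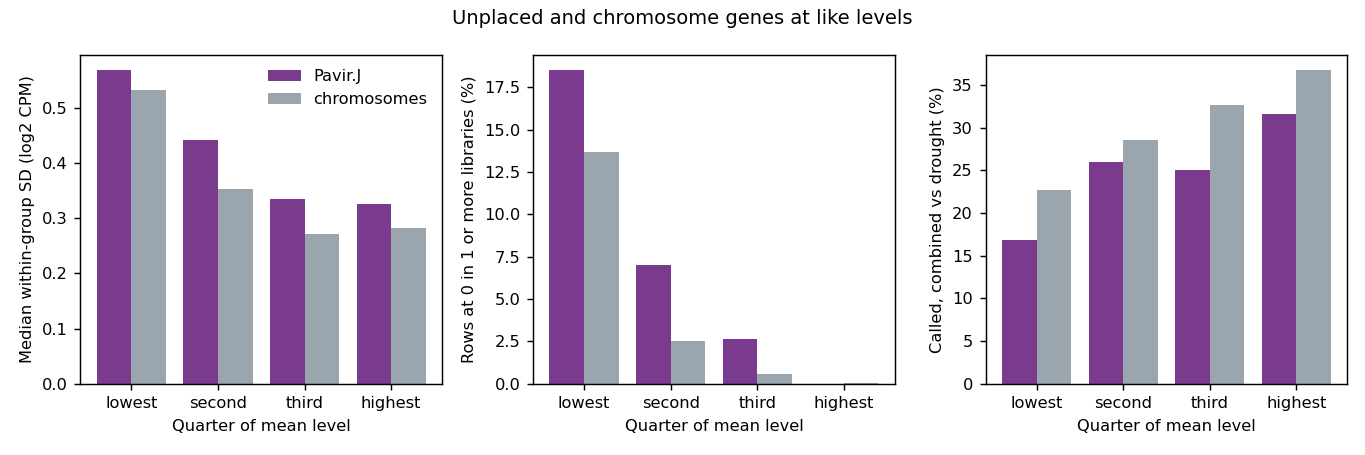
Unplaced (purple) and chromosome (grey) genes in 4 equal bins of mean level over all genes with a count in some library. Panels give the median SD of log2 CPM within groups, the percentage of genes at 0 in 1 or more libraries, and the percentage of genes called between combined and drought libraries. Purple bars were higher in each bin for the SD, higher in the lower 3 bins for genes at 0, and lower in each bin for the calls (16.9% to 31.6%, against 22.8% to 36.7%).

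Some unplaced genes were switched, with counts in most libraries and next to none in others. The 42 members found were 42 of the 165 unplaced genes with an SD above 1 and 24 of the 38 with an SD above 2. The search used the 9 libraries at 0 h, before treatment and without their labels, and kept genes whose log2 CPM fell into separate levels at least 2 units apart. The most common division set combined replicate 2 and drought replicate 1 below the other 7 libraries. It took 42 of 1404 unplaced genes searched (2.99%), against 363 of 30205 chromosome genes (1.20%). Over all genes searched the share was 1.28%, and unplaced genes made up 10.4% of the set. Each of the 18 chromosomes had a lower share than the 2.88% of all unplaced genes, from 0.593% on 3N to 2.25% on 8K. With exactly these 2 libraries set above the other 7, the search found 8 chromosome genes and no unplaced gene. The exact match matters here. Pavir.J625900.v4.1, described below, had 38.3 and 24.6 CPM in the 2 libraries, but also 7.30 CPM in combined replicate 1 at 0 h.

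The 42 genes then divided the later libraries in the same manner. Libraries were placed by the 363 chromosome members alone. In the 12 near-absent libraries the median unplaced member stood at 0 to 0.0087 of its level in the 7 libraries at 0 h, and in the 38 libraries with the set present it stood at 0.733 to 1.38. The near-absent ones were combined replicate 2 at all 6 times, combined replicate 1 at 144 and 168 h, drought replicate 1 at 0, 120 and 144 h, and drought replicate 2 at 120 h. Values between these levels were 0.678 and 0.374 in combined replicate 1 (0 and 72 h), 0.558 in drought replicate 2 (96 h) and 0.268 in drought replicate 1 (168 h). All 18 control libraries had the set, against 8 combined and 12 drought libraries.

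**Figure D4:**
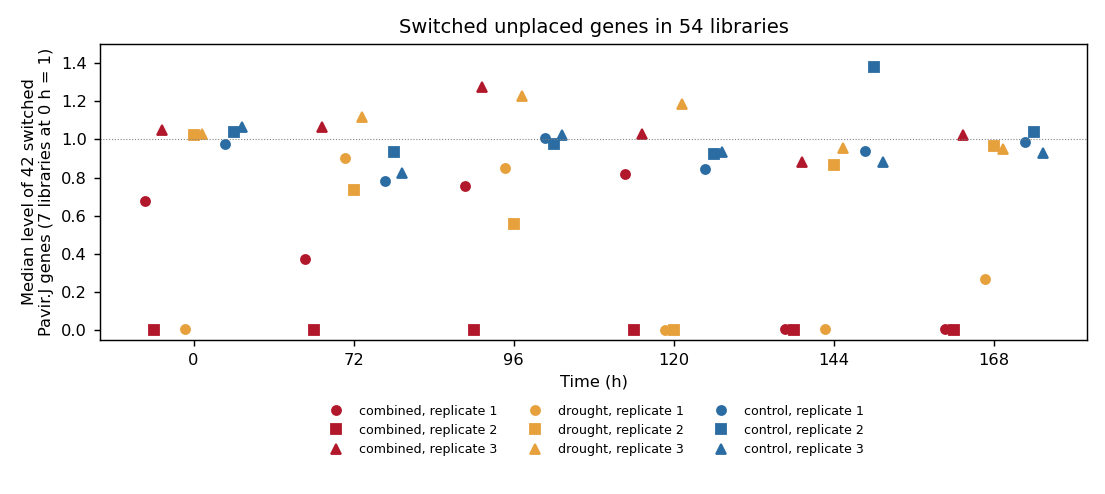
Each point is a library, with its time in hours on the x axis. The y axis is the median, over the 42 switched unplaced genes, of the level relative to the mean of the 7 libraries that have the set at 0 h. Near 0 lie 12 libraries (8 combined and 4 drought), 4 lie between 0.27 and 0.68, and 38 lie at 0.73 or above.

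Single members show how complete the division was. Over the 38 libraries with the set, the 42 genes averaged 2.56 to 42.4 CPM (median 7.33), and in the 12 near-absent libraries the median gene averaged 0.034 CPM. Their ratio had a median of 0.415%, and it was under 2% for 37 of the 42. Pavir.J743200.v4.1 had 30.1 ± 5.81 CPM (SD, n = 38) where present and 0.036 to 0.267 CPM in the 12 others. It had 21.4 to 38.2 CPM in control libraries, with no gap among them. Pavir.J537500.v4.1 had 36.5 ± 12.1 CPM where present and 0.146 to 0.753 CPM in the 12 others. Pavir.J012200.v4.1, the most abundant at 42.4 ± 20.3 CPM, kept 1.60 to 4.21 CPM there, a residue well above that of the other members just described.

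Of the 5 unplaced genes with the largest SD within groups and a mean of at least 5 CPM, 4 were members: Pavir.J584100.v4.1 (SD 2.61), Pavir.J709500.v4.1 (2.46), Pavir.J743200.v4.1 (2.38) and Pavir.J679900.v4.1 (2.36). These were chosen by the same libraries that show the division, so their SD is a description.

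The most variable gene of all, Pavir.J625900.v4.1 (SD 4.15), ran the other way. It had 11.3 to 71.5 CPM (median 30.2) in the 12 libraries where the set was near absent and 0 to 1.29 CPM in the 38 where it was present. In the 4 libraries between, it had 7.30 CPM (0 h) and 18.2 CPM (72 h) in combined replicate 1, 19.1 CPM in drought replicate 2 (96 h) and 27.5 CPM in drought replicate 1 (168 h). Its level thus separated the 16 libraries that stand apart from the 38 others, with no overlap. It was picked by its SD over these same libraries, so this separation too is a description. Among control libraries the highest value was 1.29 CPM, at 120 h, and the next 0.561 CPM, at 72 h.

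Responses to stress were tested with edgeR's quasi-likelihood test over all 32011 genes that passed the filter, in 1 model of the 18 group means. A gene was called at an adjusted p below 0.05 (Benjamini-Hochberg over all tested genes). Of the 1448 unplaced genes tested, 699 were called in none of the 4 comparisons, 315 in 1, 381 in 2, 49 in 3 and 4 in all 4. The 3 comparisons over several times share libraries with each other, so their counts are not independent. Shares called are given beside those of all genes as descriptions, and no test of the unplaced genes as a list was made.

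Under drought a smaller share of unplaced than of chromosome genes was called. Between drought and control libraries at 72 to 168 h, 312 unplaced genes were called (21.5%), 168 higher (11.6%) and 144 lower (9.94%). Over all genes tested 25.2% were called, 14% higher and 11.2% lower, and over chromosome genes 25.3%. With an estimated correlation between libraries of the same number, only 12 unplaced genes were called (0.829%, all genes 0.972%). In the edgeR fit each chromosome had a larger share, from 23.0% on 8N to 27.5% on 5K. Changes of at least 2-fold were more frequent among unplaced genes: 68 were called and at least 2-fold higher (4.70%, all genes 3.5%) and 40 at least 2-fold lower (2.76%, all genes 1.91%). The called genes had median log2 differences of 0.79 (higher) and -0.72 (lower), against 0.61 and -0.59 for chromosome genes. Their errors were larger as well: the median SE over all tested genes of each kind was 0.21 for unplaced and 0.16 for chromosome genes. In the level bins, lowest first, 17.4%, 21.6%, 23.6% and 31.1% of unplaced genes were called, against 19.5%, 23.6%, 25.9% and 31.9% of chromosome genes. Without the 16 libraries that stand apart 295 were called (128 higher and 167 lower; 20.4%, all genes 22.7%), and without the 3 that sit with another group 460 (31.8%, all genes 35.6%).

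Genes are named here by the smallest p among called genes that average at least 5 CPM. Pavir.J430500.v4.1 led those higher under drought. It had 2.22, 31.4 and 146 CPM (lowest, median and highest of 15) in drought, against 0.710, 4.08 and 49.1 CPM in control libraries. The lowest drought value and the highest control value came from the libraries labelled drought, 168 h, replicate 2 and control, 144 h, replicate 2. The log2 difference was 3.19 ± 0.43 (SE), with an edgeR adjusted p of 7.4e-06 (0.0435 with an estimated correlation). Combined libraries, which had drought as well, held 6.57, 35.3 and 185 CPM. At 0 h the gene stood at 5.42 ± 3.94 CPM in combined, 16.1 ± 9.52 CPM in drought and 18.6 ± 10.7 CPM in control libraries (SD, n = 3 each), so the later control libraries lay mostly below their own start.

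Pavir.J673800.v4.1 differed by less. It had 30.3, 48.4 and 73.2 CPM in drought, against 18.2, 23.9 and 48.3 CPM in control libraries, a log2 difference of 0.84 ± 0.11 (edgeR adjusted p 7.7e-06), and 8 of 15 drought libraries lay above all control libraries. Again the extremes that overlap were the 2 libraries labelled drought, 168 h, replicate 2 and control, 144 h, replicate 2. Its 0 h level was 35.8 ± 9.41 CPM in drought and 45.6 ± 7.92 CPM in control libraries. At 72 to 168 h the means were 47.4 CPM and 26.5 CPM, so control libraries fell from their start while drought libraries rose.

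Among genes lower under drought, Pavir.J726400.v4.1 had 7.26, 9.61 and 13.2 CPM in drought, against 10.2, 13.9 and 17.1 CPM in control libraries. It differed by -0.57 ± 0.09 on the log2 scale (edgeR adjusted p 3.5e-05), and 11 of 15 drought libraries lay below all control libraries. Combined libraries, at 8.996, 15.2 and 21.7 CPM, did not share this low level. They already stood higher at 0 h, before treatment, at 15.5, 13.4 and 18.5 CPM. Drought libraries had 11.5, 11.7 and 12.8 CPM and control libraries 10.6, 12.7 and 12.4 CPM at that time. Pavir.J563200.v4.1 had 20.2, 30.6 and 43.8 CPM in drought, against 34.4, 52.9 and 93.97 CPM in control libraries, a log2 difference of -0.75 ± 0.13 (edgeR adjusted p 0.0001). Combined libraries, at 28.1, 46.6 and 69.6 CPM, lay between.

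Combined stress against drought, where heat came on top of drought, also gave a smaller share of unplaced calls. Between combined and drought libraries at 96 to 168 h, 329 were called (22.7%), 185 higher (12.8%) and 144 lower (9.94%). Over all genes tested 29.9% were called, 15.8% higher and 14.1% lower, and over chromosome genes 30.3%. This was the widest gap of the 4 comparisons, and each chromosome again had a larger share, from 25.4% on 8K to 32.4% on 9K. At least 2-fold changes were about as frequent as elsewhere, with 57 higher (3.94%, all genes 3.51%) and 40 lower (2.76%, all genes 2.92%). Median log2 differences of called genes were 0.73 and -0.68, against 0.64 and -0.60 for chromosome genes, and the median SE was 0.23, against 0.18. The gap was present in each level bin, lowest first: 16.9%, 26.0%, 25.1% and 31.6% of unplaced genes, against 22.8%, 28.5%, 32.6% and 36.7% of chromosome genes. Without the 16 libraries that stand apart, 180 unplaced genes were called (12.5%, all genes 14.7%), without the 3 that sit with another group 346 (23.9%, all genes 31.3%), and with an estimated correlation 167 (11.5%, all genes 15.03%).

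Pavir.J065700.v4.1 had the smallest p among unplaced genes that were higher under combined stress. It had 3.32, 22.7 and 73.8 CPM (lowest, median and highest of 12) in combined libraries, against 1.08, 1.51 and 6.76 CPM in drought libraries. The log2 difference was 3.53 ± 0.41 (SE), the edgeR adjusted p was 2.3e-07, and 10 of 12 combined libraries lay above all drought libraries. The increase was uneven in time: combined libraries had 73.8, 33.5 and 72.205 CPM at 96 h. Later they had 58.2, 56.0 and 8.97 CPM (120 h), 3.32, 6.50 and 7.87 CPM (144 h) and 26.0, 14.6 and 19.3 CPM (168 h). At 72 h, with no heat in the titles, they had 2.24, 3.66 and 62.8 CPM, the last in replicate 3, the library described above. Control libraries had 1.54, 2.61 and 7.78 CPM at 96 to 168 h.

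Pavir.J354600.v4.1 followed a like course. It had 5.61, 17.4 and 31.0 CPM in combined, against 2.73, 4.50 and 9.20 CPM in drought libraries, a log2 difference of 1.70 ± 0.21 (edgeR adjusted p 4.7e-07). Combined values were 24.3, 26.3 and 31.0 CPM at 96 h and 7.56, 5.61 and 12.2 CPM at 144 h, where they overlapped the drought range.

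Of the genes lower under combined stress, Pavir.J291500.v4.1 had 8.41, 25.8 and 45.1 CPM in combined, against 40.2, 73.7 and 134 CPM in drought libraries. The log2 difference was -1.76 ± 0.22 (edgeR adjusted p 5.5e-07), and 10 of 12 combined libraries lay below all drought libraries. Control libraries lay between, at 18.2, 40.4 and 89.3 CPM. Pavir.J272900.v4.1 had 20.6, 22.8 and 38.5 CPM in combined, against 36.9, 49.0 and 79.3 CPM in drought libraries, a log2 difference of -1.04 ± 0.13 (edgeR adjusted p 6.1e-07). For this gene 11 of 12 combined libraries lay below all drought libraries, and control libraries again lay between, at 24.9, 37.4 and 52.6 CPM.

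Combined stress against control gave the most calls. At 96 to 168 h, 571 unplaced genes were called (39.4%), 317 higher (21.9%) and 254 lower (17.5%). Over all genes tested 44.4% were called, 24.4% higher and 20.1% lower, and over chromosome genes 44.7%. The chromosomes ran from 42.5% on 3N to 46.4% on 3K, all above the unplaced genes. Larger changes were again more frequent: 133 unplaced genes were called and at least 2-fold higher (9.19%, all genes 6.8%) and 100 at least 2-fold lower (6.91%, all genes 5.37%). Called genes had median log2 differences of 0.84 and -0.85, against 0.68 and -0.68 for chromosome genes. Errors were larger here too: the median SE over all tested genes of each kind was 0.23, against 0.18. In the level bins, lowest first, 33.8%, 43.6%, 41.2% and 47.2% of unplaced genes were called, against 36.7%, 44.0%, 45.8% and 51.7% of chromosome genes. Without the 16 libraries that stand apart, which include no control library, 357 unplaced genes were called (24.7%, all genes 29.4%), and without the 3 that sit with another group 601 (41.5%, all genes 47.1%). An estimated correlation left 389 (26.9%, all genes 30.3%).

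The combined and control plants also differed before treatment. At 0 h the interquartile range of the log2 differences between them was 1.01 over unplaced genes, against 0.89 over chromosome genes, and between 96 and 168 h it was 0.91 to 1.23, against 0.71 to 1.00. For drought against control it was 0.61 and 0.54 at 0 h, and 1.26 and 0.98 at 120 h, the widest time. At all 6 times and in all 3 pairs of treatments the range was wider over unplaced than over chromosome genes.

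Pavir.J379300.v4.1 had 12.6, 26.0 and 39.1 CPM (lowest, median and highest of 12) in combined, against 2.10, 4.45 and 15.1 CPM in control libraries. The log2 difference was 2.10 ± 0.25 (SE), the edgeR adjusted p 1.9e-07, and 11 of 12 combined libraries lay above all control libraries. Drought libraries lay between, at 3.62, 11.1 and 15.1 CPM, and combined libraries had 2.77 ± 0.93 CPM at 0 h (SD, n = 3). Pavir.J416100.v4.1 had 4.55, 15.1 and 22.5 CPM in combined, against 1.67, 2.33 and 9.05 CPM in control libraries, a log2 difference of 2.15 ± 0.28 (edgeR adjusted p 4.1e-07). Its highest control value was that of the library labelled control, 144 h, replicate 2.

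Pavir.J038800.v4.1 is the abundant gene among those that fell. It had 109, 271 and 844 CPM in combined, against 332, 1109 and 1594 CPM in control libraries, a log2 difference of -1.73 ± 0.21 (edgeR adjusted p 1.9e-07), and drought libraries had 390, 478 and 1007 CPM. At 0 h the order was the reverse, with 1325 ± 131 CPM in combined and 747 ± 48.9 CPM in control libraries. Pavir.J193200.v4.1 had 14.7, 20.4 and 33.3 CPM in combined, against 34.4, 57.4 and 87.4 CPM in control libraries. It differed by -1.39 ± 0.19 (edgeR adjusted p 8.1e-07), and it was the only one of the 12 genes named for the comparisons over several times whose groups did not overlap. All 12 were still called without the 16 libraries that stand apart, without the 3 that sit with another group, and with an estimated correlation. They were chosen by their small p in these data, so they do not speak for the other calls. Of the 312 unplaced drought calls, 12 remained with an estimated correlation and 214 without the 16 libraries. For combined stress these were 167 and 154 of 329 against drought, and 336 and 303 of 571 against control.

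**Figure D5:**
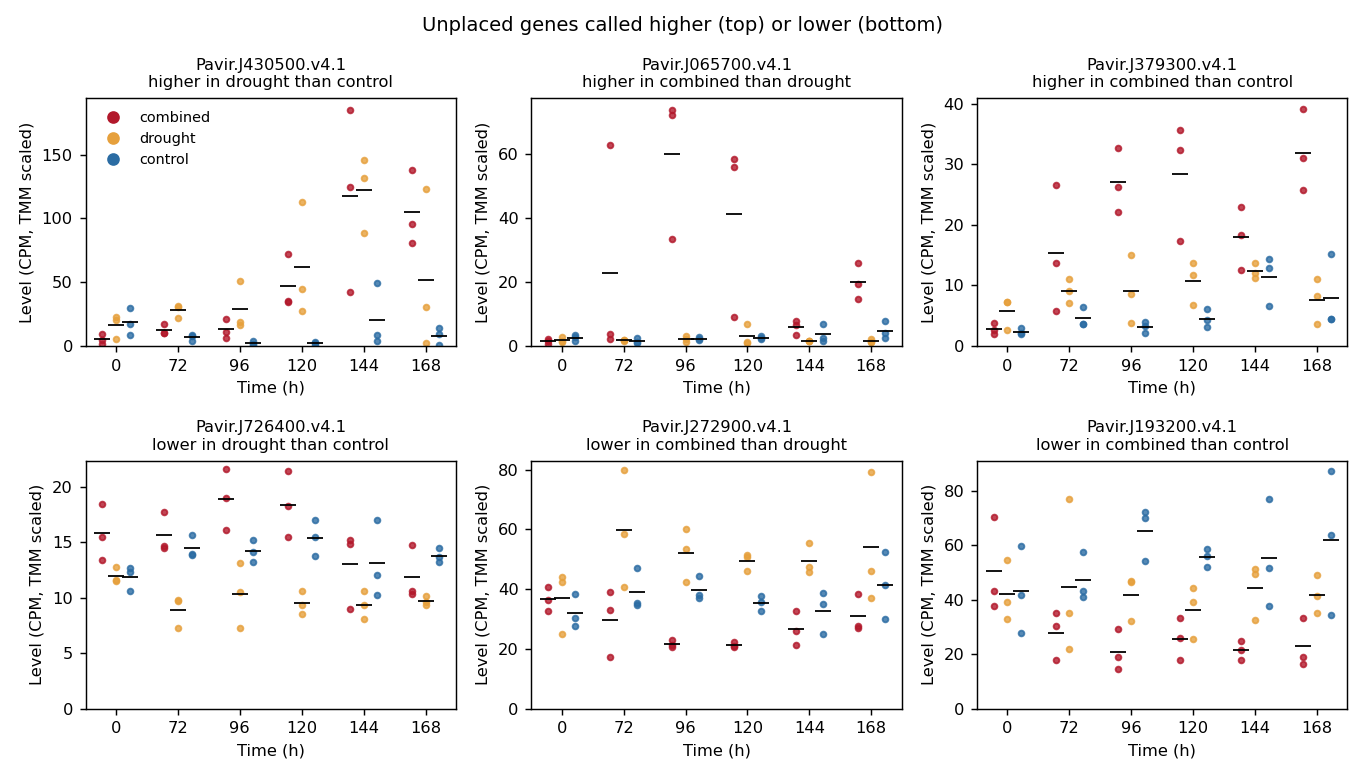
Levels in CPM (y axis) of 6 unplaced genes by time in hours (x axis), with 1 point per library and a black bar for the mean of 3. The top row shows genes called higher and the bottom row genes called lower, in the comparison named above each panel. In Pavir.J065700.v4.1, 1 combined library at 72 h (62.8 CPM) lies among those of 96 h, and in Pavir.J193200.v4.1 no combined library at 96 to 168 h exceeds 33.3 CPM.

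At 72 h, when the titles give combined plants drought but no heat, 28 unplaced genes were called between combined and drought libraries (1.93%), 21 higher (1.45%) and 7 lower (0.483%). Over all genes tested 2.55% were called, 1.86% higher and 0.69% lower. Of these, 16 were at least 2-fold higher (1.10%, all genes 1.53%) and 4 at least 2-fold lower (0.276%, all genes 0.453%). The number of calls depended on single libraries of both groups. Without combined replicate 3, which sits with the heated libraries, 0 unplaced genes were called (184 at an unadjusted p below 0.05), 47 without combined replicate 1 and 19 without combined replicate 2. There were 18 without drought replicate 1, 3 without drought replicate 2 and 2 without drought replicate 3. With only the 6 libraries compared in the edgeR fit there were 0 calls as well, and 138 genes at an unadjusted p below 0.05, and DESeq2 called 85.

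The 4 genes named at 72 h did not overlap between the groups. Pavir.J280900.v4.1 had 43.7, 76.9 and 169 CPM in combined, against 22.2, 20.5 and 12.6 CPM in drought libraries (replicates 1 to 3), a log2 difference of 2.39 ± 0.41 (edgeR adjusted p 0.0063). Pavir.J513100.v4.1 had 4.83, 15.6 and 90.5 CPM, against 2.64, 0.759 and 1.49 CPM (log2 difference 4.48 ± 0.97, edgeR adjusted p 0.0124), and with an estimated correlation the adjusted p was 0.229. Lower in combined libraries was Pavir.J291500.v4.1, with 26.2, 38.6 and 4.84 CPM, against 61.6, 79.7 and 117 CPM in drought libraries (-1.89 ± 0.44, edgeR adjusted p 0.0182). Pavir.J104400.v4.1 had 16.7, 18.4 and 15.4 CPM, against 25.9, 33.2 and 41.4 CPM (-0.99 ± 0.24, edgeR adjusted p 0.0223). Replicate 3 was the most extreme combined library in all 4, by several fold for Pavir.J513100.v4.1 and Pavir.J291500.v4.1 and only slightly for Pavir.J104400.v4.1. Without it, with 2 combined libraries left, the log2 differences were 1.71, 2.63, -1.40 and -0.92 in the same order, and the adjusted p were 0.0839, 0.194, 0.165 and 0.171. Leaving out drought replicate 2 or replicate 3 ended the calls of Pavir.J513100.v4.1 (0.0729 and 0.0643), Pavir.J291500.v4.1 (0.0523 and 0.0953) and Pavir.J104400.v4.1 (0.0687 and 0.128). At 0 h, before treatment, Pavir.J513100.v4.1 already differed, with 4.14 to 5.35 CPM in combined, against 0.347 to 1.60 CPM in drought libraries. Pavir.J280900.v4.1 had 37.9 to 54.1 CPM, against 24.4 to 35.6 CPM, also without overlap. For Pavir.J291500.v4.1 and Pavir.J104400.v4.1 the groups overlapped at that time. The comparison at 72 h did not take the 0 h levels into account.

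Of the 42 switched genes, 2 were called lower in drought than in control (4.76%, all genes lower 11.2%), 1 lower in combined than in drought (2.38%, all genes lower 14.1%) and 5 lower in combined than in control (11.9%, all genes lower 20.1%). None was called higher in these comparisons, and 0 were called between combined and drought at 72 h (all genes 2.55%). Their median log2 differences were -0.73, -0.52, -1.34 and -1.02, with median SE of 0.75, 0.84, 0.85 and 1.68. The near-absent libraries lay only in the stressed groups, including 2 at 0 h, before treatment.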

How the data were processed

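Leaf RNA of 54 libraries was measured with a stranded mRNA kit, per the labels' protocols. The submitters' processing notes name TopHat, Cufflinks and HTSeq without a version or a role. Build, annotation and strand setting of the counting: not given in the sources used here. Values in the deposited table are raw read counts of each gene, which the authors did not normalize. Groups came from the titles. In 3 combined titles 94 h with 24 h of heat was read as 96 h, as in the series design and column names, and 1 week as 168 h. No identifier matched the 74976 genes of the RefSeq P.virgatum_v5 table, so no name or sequence is given.

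The unplaced genes, comparisons and rules were chosen with earlier results of these data known. Counts were tested with edgeR 4.0.16 (R 4.3.3), after its default filter (minimum count 10, minimum total 15), with TMM scaling, a quasi-likelihood fit of 18 group means to all 54 libraries, and Benjamini-Hochberg adjustment over the 32011 genes kept. In simulated counts for the drought comparison, over 32010 genes, the fit recovered 87% of 2-fold and 100% of 4-fold changes. Changed genes were drawn only from those that average at least 5 CPM. Libraries were simulated as independent, with a spread set by mean level alone. Recovery was therefore not measured for genes of lower level or for the larger spread of unplaced genes. Alternatives used DESeq2 1.42.0 and limma 3.58.1 (voom), which was also run with an estimated correlation (0.204) between same-numbered libraries of each treatment. Genes named per comparison are the 2 higher and 2 lower called genes of lowest p that average at least 5 CPM. Also named are the 5 most abundant, the 5 with the largest SD within groups (mean at least 5 CPM) and the 3 switched genes with the highest level. The search for switched genes took genes averaging at least 20 counts at 0 h and compared log2 of CPM plus 0.5. A library was near absent when the median chromosome member was below 0.05 of its level in the 7 libraries, and between levels below 0.75. Leaving out the 3 libraries that sit with another group was chosen after seeing the data. Total counts of 19.2 to 61.6 M make counting error small beside the spread between libraries (common biological coefficient of variation 0.433).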

Additional observations from a re-analysis of the deposited data

How the results depend on the processing

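Leaving out each library in turn gave 237 to 390 unplaced calls for drought against control, 291 to 350 for combined stress against drought, 518 to 627 for combined stress against control and 0 to 47 at 72 h. An estimated correlation gave 12 for drought against control (266 genes at an unadjusted p below 0.05), 167 for combined stress against drought and 389 for combined stress against control. Without the 16 libraries that stand apart, the combined comparisons gave 180 against drought and 357 against control. At 72 h the 28 calls became 67 without those libraries, which leaves combined replicate 3 alone against 3 drought libraries and assumes that it varies like the other groups. They became 85 in DESeq2, 12 in limma, 9 with an estimated correlation, and 0 with only the groups compared (138 at an unadjusted p below 0.05) or without the 3 libraries that sit with another group (196). The causes of these shifts were not tested. Other scalings and filters stayed within 1.5 times each count. Limma moved the higher genes under drought to 41.4% of unplaced calls, from 53.8%, and leaving out the 16 libraries to 43.4%. Unplaced genes had a smaller called share than all genes under each alternative except DESeq2 at 72 h (5.87%, all genes 5.68%) and, at 0 calls, with only the groups compared.

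The share of counts was 4.07% without the 10 most abundant genes, of which 1 is unplaced. Genes under 10 counts in some library made up 24.2% of unplaced and 11.9% of chromosome genes, and thinning gave 12.6% and 5.47%. The SD by level bin was 0.568 (bin 1, lowest), 0.335 (bin 3) and 0.326 (bin 4) for unplaced and 0.533 (bin 1) and 0.271 (bin 3) for chromosome genes.

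Correlations of same-numbered libraries' deviations were above 0.1 in 4 of 15 pairs for drought and control, 12 of 15 for combined and drought (all 3 at 2 of the 5 times) and 3 of 15 for combined and control. No comparison had all pairs above 0.1, so the numbers were not taken as pairs, although many combined and drought libraries of 1 number deviated together. With the replicate block the counts were 370, 365, 639 and 41 in the order given first. Over 22 named calls, no value changed sign: 15 of 242 alternative values and 14 of 498 with a library left out were no longer called.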

Other observations

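Unplaced identifiers whose numbers differ by 100, the spacing of neighbouring entries, gave 374 pairs with 628 genes. Chromosome identifiers spaced the same way gave 12423 pairs. For drought against control both members were called in 19 unplaced pairs (5.08%, 15 in the same direction) and in 913 chromosome pairs (7.35%, 609 in the same direction). For combined stress against drought these were 36 (9.63%, 20 in the same direction) and 1240 (9.98%, 709). For combined stress against control they were 65 (17.4%, 44 in the same direction) and 2555 (20.6%, 1567). At 72 h they were 1 and 20. The difference between the 2 kinds of pair was not tested. In 3 pairs both members were switched genes. Whether such numbers mark neighbours on a sequence was not tested, since no annotation of these identifiers was used here.

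Pavir.J513100.v4.1, named above for 72 h, had 80.2, 88.7 and 65.1 CPM in combined libraries at 96 h and 0.318, 1.47 and 2.42 CPM at 144 h. Drought libraries had 3.55, 3.67 and 2.44 CPM at 96 h and 0.889, 0.476 and 0.341 CPM at 144 h. Control libraries had 23.5, 11.5 and 18.3 CPM at 96 h and 1.30, 1.19 and 2.12 CPM at 144 h. Control and drought libraries did not overlap at these times, with control higher. They overlapped at 72, 120 and 168 h, for example at 120 h with 2.96, 5.63 and 4.05 CPM in drought and 20.6, 0.474 and 12.6 CPM in control libraries.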
